A study of Homo sapiens with 4 samples.

Results

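The noncoding host genes of small nucleolar RNAs (snoRNAs) were examined after knockdown of METTL14 in the human neuroblastoma cell line SK-N-BE(2). They were chosen by symbol: every gene named SNHG plus a number, and in addition GAS5, ZFAS1, EPB41L4A-AS1, DANCR, MEG8, NOP14-AS1, TMEM107 and CCDC26. These were 36 of the 60671 genes in the count table, 28 of them SNHG genes, and 28 had enough counts to be tested among 16309 genes in all. The shNC group carried a control short hairpin RNA and the shMETTL14 group a hairpin against METTL14, with 2 libraries in each group. Per the study's methods, hairpins were delivered in the pLKO.1 lentiviral vector; which METTL14 hairpin was sequenced is not given in the labels, so an effect of METTL14 loss cannot be told apart from another effect of that hairpin. Nothing in the sources says that the libraries of a group came from separate cultures, so p-values measure the spread between these libraries, which may be technical.

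METTL14 and METTL3 form the enzyme that methylates adenosine in RNA to N6-methyladenosine (m6A). A snoRNA host gene is transcribed and spliced, the snoRNA is trimmed out of a removed intron, and the joined exons are left as a long noncoding RNA (lncRNA) that is often translated briefly and degraded by nonsense-mediated decay. Many box C/D snoRNAs, but not all, guide 2′-O-methylation of ribosomal RNA, and many box H/ACA snoRNAs guide its pseudouridylation. Small Cajal body RNAs (scaRNAs) do the same for spliceosomal RNAs. Many of these hosts start with a pyrimidine stretch, the 5′ terminal oligopyrimidine (5′ TOP) end, which they share with ribosomal protein genes and whose translation follows growth signals. Several hosts are known as abundant RNAs in dividing tumour cells, and GAS5 was named for its rise in growth-arrested cells.

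The name of the gene set was checked against the annotation. RefSeq (GRCh38.p14) places at least 1 snoRNA inside 28 of the 36 genes, 186 snoRNAs in all, of which 163 are box C/D and 23 box H/ACA, and 180 lie in an intron. SNHG14, the long imprinted transcript of the Prader-Willi region, holds 83 of them, and MEG8, an imprinted transcript of the DLK1 to DIO3 region, holds 41. GAS5 holds 11 and SNHG1 holds 8. SNHG10, SNHG20, SNHG21 and SNHG22 hold a scaRNA and no snoRNA, and CCDC26, NOP14-AS1, SNHG27 and SNHG28 hold neither. TMEM107, which codes for a protein of the ciliary transition zone, holds SNORD118 outside its introns. GENCODE 29 also lists SNHG32 as protein coding, so the remaining 26 of the 28 tested genes were noncoding.

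The starts of hosts are shown because they carry the feature that many of these genes have in common. Windows of 300 bases were taken from the RefSeq promoter table (GRCh38.p14) for 30 of the 36 genes. Each line gives 40 bases before and 20 bases from the annotated start on the gene's own strand. Capitals mark TATAA, where it begins 40 to 20 bases before the start, and the unbroken run of C and T around CTTT, where CTTT begins within 10 bases of the start. SNHG5, SNHG8, ZFAS1, SNHG12 and SNHG19 were printed because they hold both words, SNHG7 because it changed most, and SNHG10 and SNHG17 because they rose.
SNHG5 (chr6:85678714-85678773, minus strand): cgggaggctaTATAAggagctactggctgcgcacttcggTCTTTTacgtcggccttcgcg
SNHG8 (chr4:118278722-118278781, plus strand): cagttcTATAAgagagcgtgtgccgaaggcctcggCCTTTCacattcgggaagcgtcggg
ZFAS1 (chr20:49278602-49278661, plus strand): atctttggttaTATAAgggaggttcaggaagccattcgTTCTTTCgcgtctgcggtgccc
SNHG12 (chr1:28581854-28581913, minus strand): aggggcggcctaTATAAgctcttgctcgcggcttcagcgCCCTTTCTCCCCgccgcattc
SNHG19 (chr16:2155339-2155398, minus strand): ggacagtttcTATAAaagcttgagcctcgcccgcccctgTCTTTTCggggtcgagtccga
SNHG7 (chr9:136728165-136728224, minus strand): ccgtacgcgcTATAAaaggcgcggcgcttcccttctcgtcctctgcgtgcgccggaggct
SNHG10 (chr14:95534853-95534912, minus strand): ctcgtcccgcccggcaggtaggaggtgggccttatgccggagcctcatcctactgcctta
SNHG17 (chr20:38435309-38435368, minus strand): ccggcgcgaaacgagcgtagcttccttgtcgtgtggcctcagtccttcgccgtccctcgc

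CTTT lay near the start in 10 of the 30 windows, against 10.4% of all 35116 windows in the table, and TATAA lay before it in 6 of 30, against 3.91% of all. Both words were chosen after these starts had been read, and only the gene's own strand was searched. A match is a description of letters and not a measured start site. CTTT was present in 5 of 11 windows of genes that were lower after knockdown and in 5 of 11 windows of tested genes that were not called. It was in 0 of the 3 windows of genes that were higher, which are too few to compare.

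METTL14 itself was read at 753 and 754 counts in the shNC libraries and at 303 and 321 in the shMETTL14 libraries, 41.7% of control (log2 fold change -1.26, standard error 0.0832, edgeR quasi-likelihood test, adjusted p = 3.64e-11). Depth was even, from 18925786 to 19886214 counts in genes per library. The neuroblastoma genes HAND2, GATA3, MYCN and DBH were all present, the lowest at 1484 counts in any library. A gene was called where its adjusted p was under 0.05 over all 16309 genes. By that rule 52.5% of all genes were called, with 27.2% up and 25.3% down in shMETTL14, so that a call alone sets no gene apart here.

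Host genes fell more often than they rose. Of the 28 tested, 13 were called lower, 4 were called higher and 11 were not called. The 17 calls are 60.7% of the tested hosts, with 46.4% lower and 14.3% higher. The libraries of the 2 groups did not overlap in 23 hosts, or 82.1%, where 75.5% of all tested genes did not overlap. The median log2 fold change was -0.25 over the hosts and -0.00095 over all tested genes; it was -0.15 without shNC replicate 2 and -0.16 without shMETTL14 replicate 1. Summed over the tested hosts, levels were 2088 and 2156 CPM (counts scaled to library size) in the shNC libraries and 1661 and 1731 in the shMETTL14 libraries, which is 2122 ± 47.8 against 1696 ± 50.1 (mean ± SD, n = 2), or 79.9% of control. SNHG29, SNHG16, SNHG1 and SNHG7 made up 69.8% of that difference. In bulk RNA, less of a host RNA in every cell and a shift in the makeup of the culture cannot be told apart.

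This lean toward lower levels was also seen in lncRNA genes at large. Of 2160 lncRNA genes tested, 607 (28.1%) were lower and 125 (5.79%) higher, with a median log2 fold change of -0.30. Among the 529 whose mean log2 CPM reached 2, 260 (49.1%) were lower and 48 (9.07%) higher, with a median of -0.29. The 26 hosts above that level had 12 lower (46.2%) and 4 higher (15.4%), and their median was -0.21. The genes were not matched for level above that minimum, and whether hosts differ from other lncRNA genes was not tested.

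The hosts differed widely in level. CPM per kilobase of merged exon (RPKM) allow levels to be compared between genes. SNHG29 was highest in the shNC libraries at 96.3 and 96.5 RPKM, followed by SNHG6 at 72.1 and 83.6 and SNHG16 at 69.5 and 70.1. GAS5, SNHG5, SNHG8 and SNHG1 came next, with means from 50.6 to 57.4 RPKM, and the libraries of SNHG5 overlapped those of GAS5 and SNHG8, whereas both libraries of SNHG1, at 49.2 and 52.1, lay below them. All 7 of these most highly expressed hosts were called lower. SNHG26 was lowest at a mean of 0.891 RPKM. SNHG14 was deep in counts, at 3043 in an shNC library, but stood at only 3.46 RPKM on average because its merged exons are long.

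**Figure D1:**
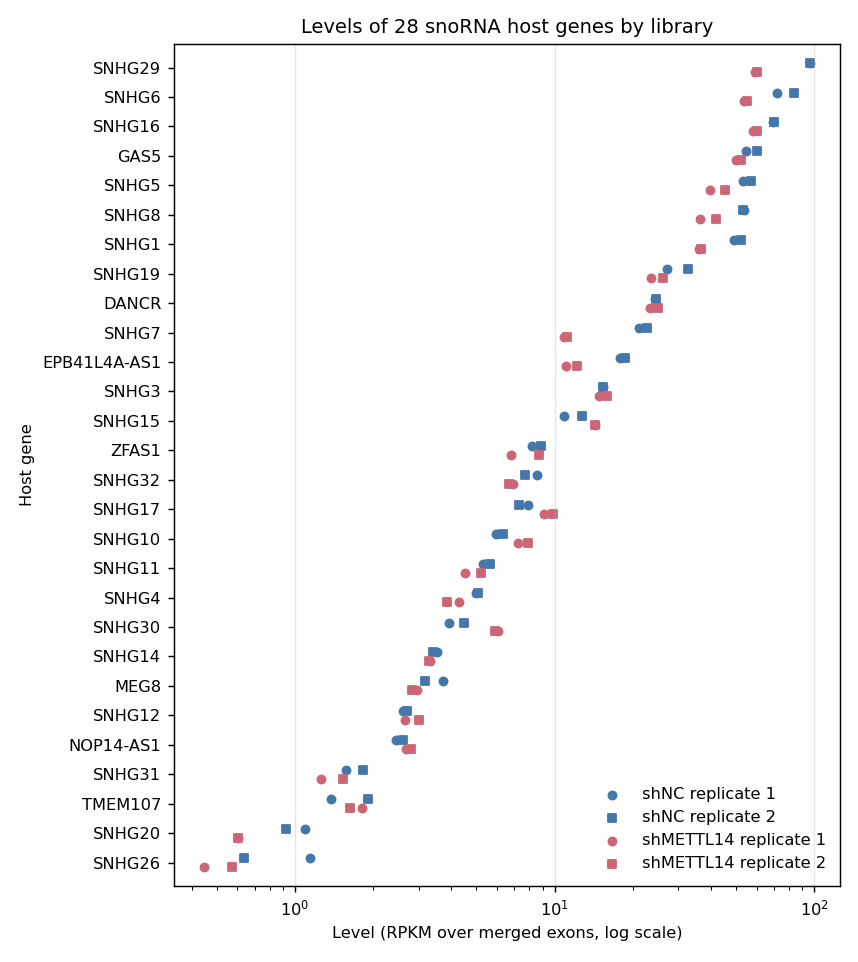
RPKM of the 28 tested host genes on a log axis, ordered by the mean of the shNC libraries, with 1 point for each of 2 shNC (blue) and 2 shMETTL14 (red) libraries. The 7 hosts at the top have both shMETTL14 points to the left of both shNC points; for SNHG29 the shMETTL14 libraries stand at 59.0 and 60.1 RPKM against 96.3 and 96.5.

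SNHG7, the host of SNORA17A and SNORA17B, changed most among the hosts. It lies on the minus strand of chromosome 9 from 136721366 to 136728184 (GRCh38) and had 1832 and 1892 counts in shNC and 926 and 930 in shMETTL14. Its shMETTL14 level was 50.1% of control (log2 fold change -0.996, standard error 0.0546, edgeR adjusted p = 1.77e-12), and 6.54% of all tested genes fell further. The groups were far apart and the replicates close. The call held under every alternative processing, with log2 fold changes from -1.06 to -0.94. Exons of DIPK1B overlap SNHG7 on the other strand, and DIPK1B had 884 and 900 against 762 and 822 counts and was not called (log2 fold change -0.16, edgeR adjusted p = 0.0523).

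The box C/D hosts of highest abundance fell together, by different amounts. SNHG29, host of SNORD49A, SNORD49B and SNORD65, went from 7213 and 6948 counts to 4344 and 4348, or 61.8% of control (log2 fold change -0.69, edgeR adjusted p = 2.67e-12). SNHG6, host of SNORD87, went from 1792 and 1997 counts to 1315 and 1320 (69.9% of control, edgeR adjusted p = 2.03e-07). In both genes the groups were clearly separate. SNHG1, whose 8 snoRNAs include SNORD22 and SNORD25, had 3683 and 3745 counts against 2648 and 2644 (71.7% of control, edgeR adjusted p = 5.87e-09). SNHG5, host of SNORD50A and SNORD50B, had 2986 and 3058 against 2176 and 2449 (77.0% of control, edgeR adjusted p = 4.02e-06). The shMETTL14 libraries of SNHG5 differed more from each other than those of SNHG1, and both still lay below the shNC libraries.

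SNHG16 and GAS5 fell less. SNHG16, host of SNORD1A, SNORD1B and SNORD1C, had 7429 and 7196 counts in the shNC libraries and 6091 and 6209 in the shMETTL14 libraries, 84.7% of control (log2 fold change -0.24, standard error 0.0389, edgeR adjusted p = 2.05e-05). GAS5 had 3955 and 4183 against 3561 and 3652 counts, 89.1% of control (log2 fold change -0.17, standard error 0.0463, edgeR adjusted p = 0.0048). The direction of GAS5 was the same in each alternative, but its call was lost without shNC replicate 2 (log2 fold change -0.090) and without shMETTL14 replicate 1 (-0.13). GAS5 was thus the least changed of the called hosts, and both shMETTL14 libraries were only slightly below the lower shNC library.

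Among box H/ACA hosts, EPB41L4A-AS1 and SNHG8 fell beside SNHG7. EPB41L4A-AS1, host of SNORA13, had 1190 and 1192 counts in the shNC libraries against 723 and 786, 63.8% of control (log2 fold change -0.65, edgeR adjusted p = 2.52e-08). SNHG8, host of SNORA24, had 988 and 942 against 655 and 747, 73.2% of control (log2 fold change -0.45, edgeR adjusted p = 1.8e-05). Neither gene had overlapping groups, and both kept their call in every alternative. SNHG4, host of SNORA74A and SNORA74D, had 445 and 434 against 374 and 331 counts (80.7% of control, edgeR adjusted p = 0.00679), and this call was lost with DESeq2 (adjusted p = 0.116) and without shMETTL14 replicate 2.

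The other called decreases were in genes with fewer counts or less stable calls. SNHG20, which holds SCARNA16, had 133 and 108 counts against 72 and 71 and kept its call throughout (59.8% of control, log2 fold change -0.74, edgeR adjusted p = 0.00146). SNHG26, host of SNORD93, had 60 and 32 counts against 23 and 29, and its log2 fold change of -0.81 (edgeR adjusted p = 0.0454) became -0.32 and lost its call without shNC replicate 1. The call of SNHG26 was also lost with no filter on low counts (edgeR adjusted p = 0.0557), with DESeq2 (adjusted p = 0.248) and without shMETTL14 replicate 1 (edgeR adjusted p = 0.174). The shNC libraries of SNHG26 differed from each other more than the lower of them differed from shMETTL14. MEG8 had 826 and 675 counts against 644 and 604 (83.8% of control, edgeR adjusted p = 0.0113), and its log2 fold change of -0.26 became -0.14 with no call when shNC replicate 1 was left out. The call of MEG8 was also lost with DESeq2 (adjusted p = 0.112) and without shMETTL14 replicate 2 (edgeR adjusted p = 0.0633).

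**Figure D2:**
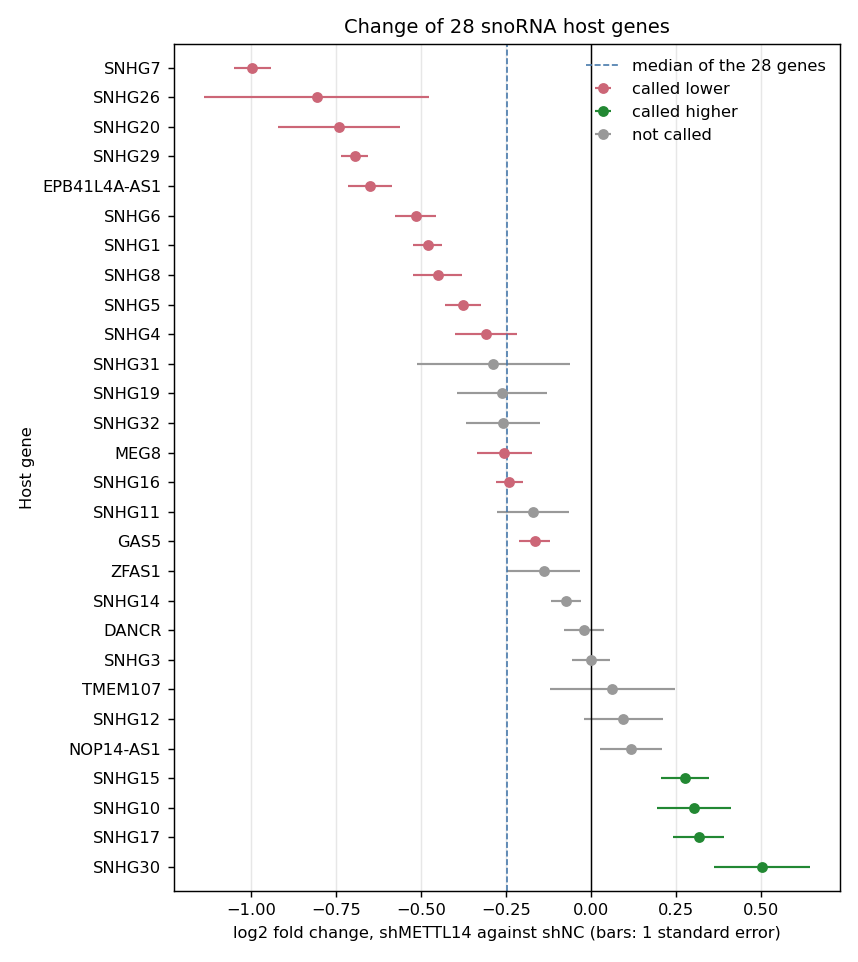
Log2 fold change (shMETTL14 against shNC) of each of the 28 tested host genes with 1 standard error, fitted by edgeR over 2 libraries a group, coloured by call, with the median of the 28 genes as a dashed line. SNHG7 stands at the far left at -0.996 and SNHG30 at the far right at 0.50; 21 of 28 points lie below 0.

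Only 4 hosts were called higher, each by less than 1.5-fold, and DESeq2 called 2 hosts higher. In all, 7 tested hosts had a log2 fold change above 0. SNHG17, host of 4 SNORA71 copies, had 661 and 586 counts in the shNC libraries against 749 and 793, 125% of control (log2 fold change 0.32, standard error 0.0751, edgeR adjusted p = 0.00123), and was called under every alternative. SNHG30, host of SNORD7, had 118 and 129 against 178 and 170 (log2 fold change 0.50, edgeR adjusted p = 0.00493) and was not called by DESeq2 (adjusted p = 0.0946). SNHG15, host of SNORA9, had 794 and 890 against 1022 and 1005 (log2 fold change 0.28, edgeR adjusted p = 0.00215) and lost its call without shNC replicate 1 (log2 fold change 0.16). In all of these the shMETTL14 libraries lay above both shNC libraries. SNHG10, which holds SCARNA13, had 230 and 235 against 275 and 295 (log2 fold change 0.30, edgeR adjusted p = 0.0232); its call was lost under upper quartile scaling, library size alone, DESeq2 and 2 of the 4 fits that left out a library. Of the 17 called hosts, the 5 that changed by at least 1.5-fold were all lower.

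The 11 hosts that were not called included 3 well-read ones near 0. SNHG3, host of SNORA73A and SNORA73B, had 1250 and 1203 counts against 1186 and 1249 (log2 fold change -0.00097, standard error 0.0556, edgeR adjusted p = 0.989). DANCR, an lncRNA known for holding back differentiation and host of SNORA26, had 1107 and 1077 against 1040 and 1098 (log2 fold change -0.021, edgeR adjusted p = 0.788). Their groups overlapped. SNHG14 had 3043 and 2821 against 2799 and 2735 (log2 fold change -0.074, edgeR adjusted p = 0.156). It was called lower under upper quartile scaling and by library size alone. Over genes whose mean log2 CPM reached 2, these settings moved log2 fold changes down by medians of 0.0676 and 0.0451.

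ZFAS1, which is antisense to ZNFX1 and holds the SNORD12 family, had 365 and 382 counts in the shNC libraries and 299 and 375 in the shMETTL14 libraries (log2 fold change -0.14, edgeR adjusted p = 0.292). Leaving out either shMETTL14 library moved it to 0.031 or to -0.32, and it was called in the latter fit. SNHG32, host of SNORD48 and SNORD52, had 307 and 265 against 244 and 231 and missed the threshold narrowly (log2 fold change -0.26, edgeR adjusted p = 0.0504); 6 of 11 alternatives called it lower. The remaining uncalled hosts were SNHG31 (log2 fold change -0.29), SNHG19 (-0.26), SNHG11 (-0.17), TMEM107 (0.063), SNHG12 (0.095) and NOP14-AS1 (0.12), at 52 to 389 counts in a library. SNHG19 was called lower under upper quartile scaling (edgeR adjusted p = 0.043) and without shNC replicate 1 (log2 fold change -0.39, edgeR adjusted p = 0.036), and stood at -0.12 without shNC replicate 2.

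Another 8 hosts had too few counts to be tested. SNHG27 and SNHG28 had no count in any library, and CCDC26, SNHG18 and SNHG25 had 3 counts or fewer in each library, so no fold is given. SNHG21 had 8 and 11 counts in the shNC libraries and 3 and 4 in the shMETTL14 libraries, and SNHG22 had 7 and 9 against 4 and 3. SNHG9 had 10 and 8 against 8 and 15. In the fit with no filter on low counts none of them was called, with edgeR adjusted p-values of 0.184 for SNHG21, 0.345 for SNHG22 and 0.654 for SNHG9. At this depth a change in these genes was not detectable.

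Decreases outnumbered increases among hosts of both kinds of snoRNA, as they did among lncRNA genes at large. Of all 2160 tested lncRNA genes, 28.1% were lower and 5.79% higher (median log2 fold change -0.30). Of the 529 whose mean log2 CPM reached 2, 49.1% were lower and 9.07% higher (median -0.29). Of 13 tested hosts that hold only box C/D snoRNAs, 7 were lower and 1 higher, with a median log2 fold change of -0.26. Of 10 that hold only box H/ACA snoRNAs, 4 were lower and 2 higher, with a median of -0.23. Over the 25 tested hosts that hold any snoRNA, 12 were lower and 3 higher, and the median was again -0.26. The difference between the kinds was not tested.

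The snoRNAs themselves had few counts in these libraries. How reads shared by a snoRNA and a host exon were counted is not given in the sources used here. The table has 176 snoRNA genes that lie inside the hosts by GENCODE 29, and 137 of them had no count in any library. Together they had 248 and 163 counts in the shNC libraries and 154 and 180 in the shMETTL14 libraries, with overlapping groups. Of these, 7 were tested and none was called by edgeR. SNORA71B, inside SNHG17, had 15 and 15 counts against 24 and 30 (log2 fold change 0.85, edgeR adjusted p = 0.0691). SNORD114-7, inside MEG8, had 12 and 11 against 3 and 8 (log2 fold change -1.04, edgeR adjusted p = 0.15). The host values therefore say nothing about mature snoRNA levels.

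The letters GGACT, a frequent form of the site at which METTL3 and METTL14 act (GGACU in RNA), were counted in the longest GENCODE 29 transcript of each host. They occur in 20 of 28 tested hosts at a median of 0.633 per kb, and in 88.5% of the 16147 tested genes with a transcript at a median of 0.91 per kb. The median was 0.602 per kb over the 13 hosts called lower, 0.814 over the 4 called higher and 0.424 over the 11 not called. SNHG8 had the highest density at 4.46 per kb, SNHG7 had 2.12 and SNHG10, which rose, had 1.96. No GGACT was in that transcript of SNHG6, SNHG20, SNHG26 and SNHG4, which fell, or of SNHG17, which rose. The same held for DANCR, SNHG19 and ZFAS1, which were not called. Other transcripts and other forms of the site were not searched. The words in SNHG7 are shown with 10 bases on either side because it is the most changed host; capitals mark GGACT, the strand is minus and coordinates are GRCh38.
SNHG7 word at chr9:136728046-136728070: gcggcctaggGGACTgggctgctgg
SNHG7 word at chr9:136726357-136726381: cgcctgtgatGGACTtccagtgtga
SNHG7 word at chr9:136723967-136723991: cccccttggaGGACTctcctgccgg
SNHG7 word at chr9:136723052-136723076: gggcccacacGGACTtggcttccgc
SNHG7 word at chr9:136722323-136722347: accgtggtgtGGACTcctgccctgc

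Methylation of RNA was not measured in these libraries, so the words are a description of sequence and not methylated sites.

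Many hosts share exon sequence or a start region with another gene, and whether the counting used strand is not given in the sources used here. Without strand, reads of overlapping genes on opposite strands cannot be told apart. SNHG10 overlaps GLRX5, a gene of mitochondrial iron-sulphur cluster assembly, on the other strand, and GLRX5 rose from 1155 and 1155 counts to 1998 and 2092 (log2 fold change 0.83, edgeR adjusted p = 1.41e-11). The part of such partners in the host values was not tested.

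SNHG4 overlaps SIL1, a nucleotide exchange factor of the endoplasmic reticulum, on the other strand, and SIL1 fell from 670 and 653 counts to 556 and 535 (log2 fold change -0.27, edgeR adjusted p = 0.00477), beside -0.31 for SNHG4. SNHG3 shares its strand with RCC1, a chromatin-bound exchange factor for Ran, and neither was called (RCC1 log2 fold change -0.015). SNHG12 overlaps TRNAU1AP, which rose (log2 fold change 0.29, edgeR adjusted p = 0.01). Over all 21 tested genes whose span overlaps a host, 3 were higher, 9 lower and 9 not called, and DESeq2 called 4 in either direction. The share called by edgeR was 57.1%, near the 52.5% of all tested genes.

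**Figure D3:**
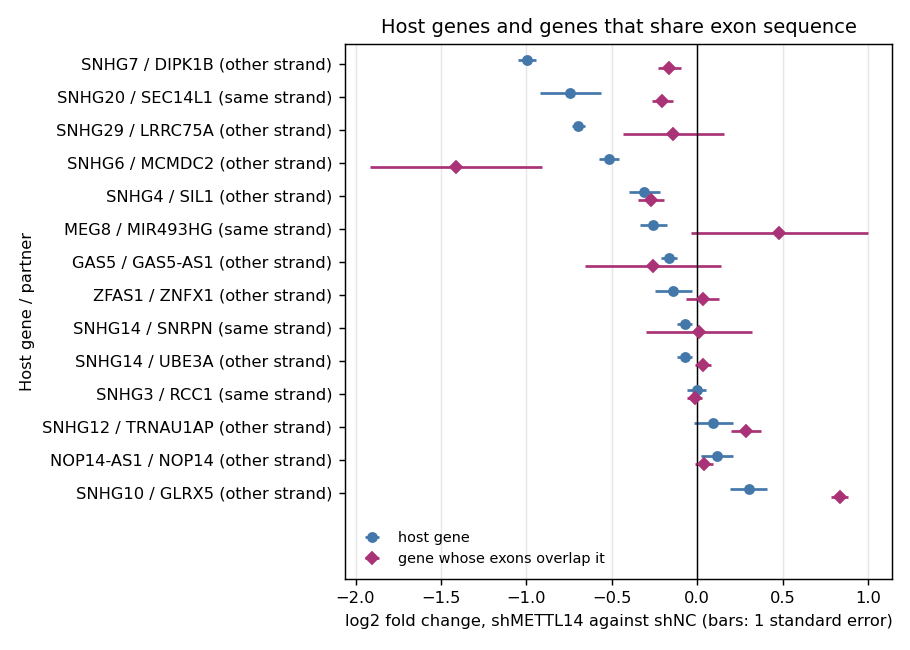
Log2 fold change (shMETTL14 against shNC) with 1 standard error for the hosts (blue circles) and 14 tested genes whose exons overlap a host (purple diamonds), fitted by edgeR over 2 libraries a group. GLRX5 at 0.83 lies on the side of SNHG10, and SIL1 at -0.27 lies close to SNHG4 at -0.31.

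Of the 10 tested neighbours that start head to head with a host, 4 were higher, 2 lower and 4 not called; without shMETTL14 replicate 2 the 6 calls became 3. With all libraries 60.0% of these neighbours were called, where 52.5% of all tested genes were called. ZBTB37, 800 bp from the start of GAS5, was lower like GAS5. It had 870 and 709 against 697 and 652 counts (log2 fold change -0.22, edgeR adjusted p = 0.026). SLC3A2, an amino acid transporter subunit 188 bp from SNHG1, had 3924 and 3942 against 3628 and 3699 counts and was not called (log2 fold change -0.093, edgeR adjusted p = 0.068), while SNHG1 fell by 0.48 on the log2 scale. SEMA5A, an axon guidance gene 125 bp from the barely read SNHG18, fell from 1430 and 1368 counts to 582 and 623 (log2 fold change -1.21, edgeR adjusted p = 8.82e-13). TRAF7, ZNFX1 and RPS2, beside SNHG19, ZFAS1 and SNHG9, were not called, and MFSD10, BARD1 and ACAA2, beside NOP14-AS1, SNHG31 and SNHG22, were called higher at log2 fold changes of 0.24, 0.17 and 0.34.

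Genes for the proteins that bind snoRNAs were called higher more often than lower, where 27.2% of all tested genes were higher and 25.3% lower. Of the 4 core proteins of box H/ACA particles, all were called higher: NOP10 at a log2 fold change of 0.85, GAR1 at 0.46, NHP2 at 0.21 and the pseudouridine synthase DKC1 at 0.11. NOP10 went from 2114 and 2036 counts to 3633 and 3801 (edgeR adjusted p = 9.49e-13). Of the 4 core proteins of box C/D particles, SNU13 (0.45), NOP58 (0.18) and the methyltransferase FBL (0.15) were higher, and NOP56 (0.11) was not called (edgeR adjusted p = 0.0502). Among 13 particle assembly genes 6 were higher, none was lower and 7 were not called, with TCOF1 at 0.50 and NOPCHAP1 at 0.43; DESeq2 called 3 of these 13.

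The genes that process snoRNAs or degrade host exons moved both ways. Of 13 snoRNA processing genes, 3 were higher and 4 lower, with a median log2 fold change of -0.018. That is 53.8% called, near the 52.5% of all tested genes. The intron debranching enzyme DBR1 rose (0.41), as did the poly(A) polymerase TENT4A (0.42), and the exosome adaptor ZCCHC8 (-0.40) and the exonuclease XRN1 (-0.28) fell. Of 19 nonsense-mediated decay factors, 5 were higher and 7 lower (63.2% called), with a median of 0.013. MAGOH (0.64) and RNPS1 (0.36), which act at exon junctions, were higher, and PNRC2 (-0.73) and NBAS (-0.35) were lower.

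Genes of the 5′ TOP class were called lower more often than higher, where 25.3% of all tested genes were lower and 27.2% higher. Of 15 tested genes of that class other than ribosomal protein genes, none was higher and 10 were lower by edgeR, with a median log2 fold change of -0.24. Not all of them are translation genes. HNRNPA1 (-0.38), NAP1L1 (-0.31) and NPM1 (-0.16), which are not, were among the lower, and VIM (0.032) was not called. EIF4B, an initiation factor, went from 23232 and 23007 counts to 13177 and 12811 (log2 fold change -0.82, edgeR adjusted p = 5.58e-14), and EEF2, an elongation factor, had -0.44. Of 27 ribosomal protein genes that hold a snoRNA, 15 were lower and 2 higher (median -0.14), with RPL3 at -0.40 among the lower and RPL17 at 0.44 and RPL13 at 0.13 as the higher. Of 55 ribosomal protein genes without a snoRNA of known strand, 19 were lower and 8 higher (median -0.078). RPL22L1 (-0.84) and RPL14 (-0.46) fell, and RPL36AL (0.59) and RPL26 (0.79) rose; ribosomal protein genes have near-identical copies, so their counts are uncertain, and RPL26 had at most 159.

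Protein-coding genes that hold a snoRNA were called in both directions in similar numbers. Of 134 tested, 39 were higher, 43 lower and 52 not called, and the median log2 fold change was -0.020. Only snoRNAs of known strand were used to choose these genes, whereas snoRNAs without a strand were also assigned to the noncoding hosts. The called share was 61.2%, where 52.5% of all tested genes were called. These 134 include the 27 ribosomal protein genes that hold a snoRNA (2 higher, 15 lower) and members of other lists such as EEF2 and DKC1. The subunit genes of the mitochondrial import channel TIMM23 (0.88) and its near copy TIMM23B (0.95) rose, and the calcium pump ATP2B4 (-1.02) and the splicing factor KHDC4 (-0.73) fell. The difference between the noncoding and the protein-coding hosts was not tested.

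**Figure D4:**
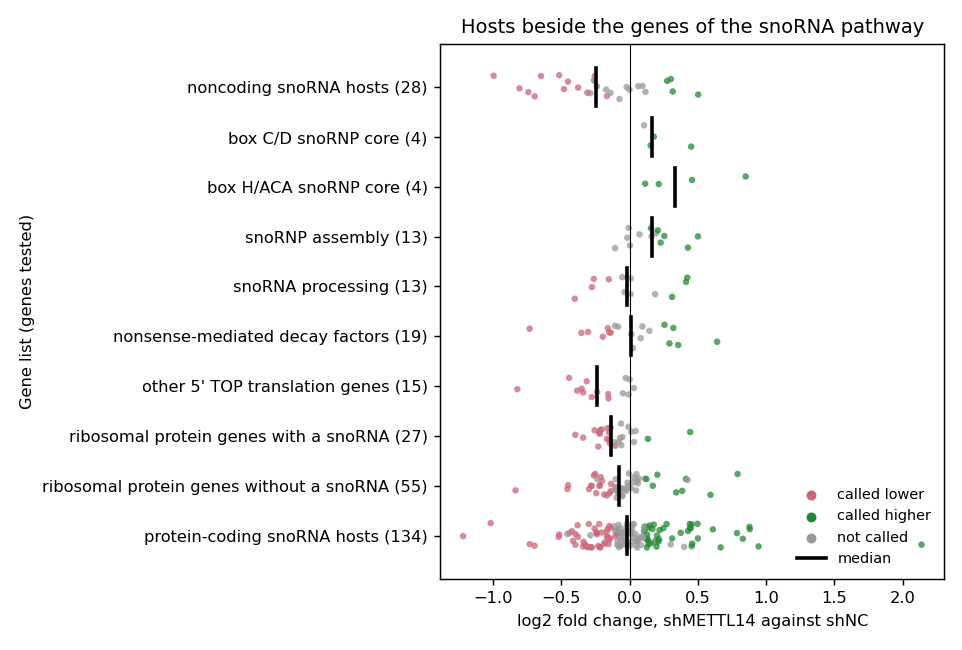
Log2 fold change (shMETTL14 against shNC) of every tested gene in the noncoding hosts and in 9 related lists, 1 point per gene coloured by its edgeR call, scattered vertically for visibility, with a black bar at each median. The medians run from -0.25 for the noncoding hosts and -0.24 for the other 5′ TOP genes to 0.34 for the box H/ACA core. Some genes stand in more than 1 list.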

How the data were processed

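RNA of 2 shNC and 2 shMETTL14 libraries was sequenced as paired ends on an Illumina NovaSeq. The authors deposited raw counts per Ensembl gene, with no normalization. The submitters' processing notes name HISAT2 2.1.0, StringTie 1.3.6, HTSeq 0.13.5 and edgeR, and the GRCh38 build; the annotation release and strand setting are not given in the sources used here. Lines that named no gene (19.1% to 19.86% of counts) were left out. Genes passing filterByExpr in edgeR 4.0.16 (R 4.3.3; minimum count 10, minimum total 15) were tested over the whole table with TMM scaling, group as the only term and the quasi-likelihood F-test, with Benjamini-Hochberg adjustment and a threshold of 0.05. The tests were checked on simulated counts. The smallest two-sided p that exact permutation of 2 against 2 libraries allows is 0.333. The mean chi-square per gene was 2.66 between the shNC libraries, 2.21 between the shMETTL14 libraries and 31 between groups, so replicates differed by more than sampling noise, which is near 1. The biological coefficient of variation was 3.45%.

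CPM used TMM-scaled library sizes, and RPKM divided them by the merged exon length in GENCODE 29. Host genes were matched by symbol. SnoRNA positions came from RefSeq GRCh38.p14, which gives no strand in the table used, so strand was taken from overlapping GENCODE genes where there was one. For 115 of the 573 RefSeq snoRNA and scaRNA genes this gave no strand. The host genes kept those inside their span, and protein-coding genes outside the set did not. Alternatives were RLE, upper quartile and library size scaling, a stricter filter and none, DESeq2 1.42.0, a replicate block and leaving out each library. Named genes were METTL14, every host, head-to-head neighbours, and up to 2 called increases and 2 called decreases of each related list whose mean log2 CPM reached 2; the overlap partners SIL1, RCC1 and DIPK1B, the neuroblastoma genes and the words CTTT, TATAA and GGACT were added after values were seen. Some genes that these rules would name are not reported here. The host genes and lists were chosen with earlier results of these data known.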

Additional observations from a re-analysis of the deposited data

How the results depend on the processing

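With 2 libraries a group, calls rest on the variance that edgeR shares across genes, and standard errors hold no variation beyond these 4 libraries. Of 308 host results under alternatives, 270 kept their direction and side of the threshold, 18 lost the call, 11 gained it and 9 changed sign, in 14 hosts in all. Upper quartile scaling changed the split of calls over all genes from 4438 higher and 4123 lower to 3550 higher and 4961 lower. DESeq2 called 5538 genes where edgeR called 8561.

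DESeq2 called 2 hosts higher, 4 genes overlapping a host and 3 snoRNP assembly genes.
Leaving out 1 library at a time gave 14 to 17 called hosts, 2 to 4 of them higher and 11 to 13 lower, and a median log2 fold change of -0.24 to -0.15; the fewest increases (2) came without shNC replicate 1. The count of head-to-head neighbours called ran from 3 (without shMETTL14 replicate 2) to 6.

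The fits that changed the sign of a host gave no call. Over the fits without 1 library, the lowest and highest values were -0.043 and 0.052 for SNHG3, -0.16 and 0.32 for TMEM107, -0.065 and 0.034 for DANCR, and -0.32 and 0.031 for ZFAS1. SNHG3 also became 0.0095 with no filter on low counts and 0.0057 with DESeq2, and TMEM107 became -0.0044 under upper quartile scaling.

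Libraries of the 2 groups share replicate numbers. With the replicate block 18 hosts were called (4 higher, 14 lower, SNHG32 gained), and 8926 genes in all. The deviations of equally numbered libraries from their group means correlated weakly across 11625 genes (Pearson 0.0717, Spearman 0.0417). Genes are not independent replicates, and what the numbers stand for is not given, so whether such libraries are paired is unknown. The block lost no host call.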
